A study of Mus musculus with 12 samples.

Results

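The hemin response of colonoids labelled *Hmox1* KO was taken from a series of 12 RNA-seq libraries. Colonoids are organoids grown from colonic epithelium, and hemin is the ferric chloride form of heme. The members were chosen by label as the 3 libraries labelled KO that received 200 µM hemin for 24 h and the 3 of the same label that received vehicle, so they were 6 of the 12 libraries. Of 54532 genes in the table, the 11949 that reached an FPKM of 1 in 3 or more of these 6 libraries were tested.

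The study asked how loss of heme oxygenase-1 (HO-1), the product of *Hmox1*, changes the response of colonic epithelial cells to heme. In 5 of the 6 libraries the genotype was written as *Hmox1* KO with Vil1 Cre, and for hemin replicate 3 as *Hmox1* fl/fl with Vil1 Cre. This stands for floxed *Hmox1* alleles together with Cre recombinase under the villin promoter, which drives recombination in intestinal epithelium. The control colonoids, 3 libraries with vehicle and 3 with hemin at the same dose and time, carried the floxed alleles and no Cre in their label. Colonoids were made from the colons of mice aged 8 to 12 weeks and grown in a medium conditioned by L-WRN cells, which secrete Wnt3a, R-spondin 3 and noggin. The labels do not state whether each library represents its own animal or culture, so p-values measure only the spread between these libraries, which may be technical.

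Expression was given as FPKM, the fragments on a gene relative to its length and to a measure of library depth. Their median-of-ratios factor was 1 in all 12 libraries, so the deposited values were already scaled between libraries, and they do not follow library totals alone. The values were whole multiples of 1 fragment, from which depth was recovered. Replicates 1, 2 and 3 held 15067607, 16009941 and 15537521 fragments on genes with vehicle and 15479954, 25101868 and 15213738 with hemin. Hemin replicate 2 was the deepest and stood apart in another way. The nuclear noncoding RNA *Gm23935* took 21% of its FPKM sum, against 2.12% and 1.68% in hemin replicates 1 and 3 and 1.18% to 1.45% with vehicle. Chi-square per degree of freedom between fragment counts was 1.93 to 3.02 among the vehicle libraries and 3.51 between hemin replicates 1 and 3, but 30.6 and 28.9 between hemin replicate 2 and those 2 libraries. No library of the 6 repeated another within sampling noise.

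Heme that enters a cell is opened by HO-1 into biliverdin, carbon monoxide and ferrous iron, and the iron is stored in ferritin or exported. Heme also releases the repressor BACH1 from promoters, and electrophiles formed during oxidative stress stabilise the activator NRF2. Both converge on antioxidant response elements beside genes for glutathione synthesis, quinone reduction, NADPH supply, ferritin and HO-1 itself. The colonic epithelium that meets luminal heme is renewed from crypt stem cells, whose dividing daughters become absorptive colonocytes, mucus-secreting goblet cells, hormone-secreting enteroendocrine cells or chemosensory tuft cells.

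*Hmox1* itself (ENSMUSG00000005413, chromosome 8) had an FPKM of 3.14, 2.11 and 2.31 in the vehicle libraries labelled KO and 1279, 1392 and 1271 in the hemin libraries. The groups lay far apart, and the log2 fold change was 8.55 (standard error 0.12, adjusted p = 5.5e-12 from limma), the largest rise of any tested gene. In control colonoids *Hmox1* was at 7.62, 6.85 and 7.90 with vehicle and at 503, 483 and 382 with hemin. The transcript was thus lower in the colonoids labelled KO than in controls with vehicle and higher with hemin, a high value for a KO label. An FPKM summed over a gene cannot tell a floxed exon from the others. The values therefore do not show whether that exon was present, and the genotype is given as labelled. Hemin against vehicle compares libraries of 1 label, and each comparison with controls rests on that label.

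The tissue label was checked against marker genes. All 9 epithelial markers passed the filter, with *Krt8* the most abundant, and their summed FPKM was 6177, 6206 and 6235 with vehicle and 9169, 7877 and 8909 with hemin. The members did not move together: *Krt18* (−0.48) and *Cdx1* (−0.60) passed the adjusted p downwards below the fold threshold. *Vil1*, which encodes villin, was the member called, at a log2 fold change of 1.28, and this call was lost on the TPM scale. All 5 colon markers were tested as well. *Hoxb13*, a gene of the distal colon, had an FPKM of 104, 115 and 111 with vehicle and 134, 128 and 132 with hemin, while it was listed at 0 in each of the 6 control libraries. *Hoxd13* too was expressed in all 6 libraries labelled KO and at 0 in the controls, so the genotypes differed in a marker of position along the colon before any hemin was given. None of the 4 small intestinal markers was tested. Their summed FPKM was 1.20, 1.74 and 1.10 with vehicle and 0.234, 0.115 and 0.0466 with hemin.

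Markers of other cell types were near the floor. None of 7 fibroblast markers was tested, *Vim* being the most abundant, and *Col1a2*, *Col3a1* and *Dcn* were at 0 in all 6 libraries. The same held for 3 smooth muscle, 3 endothelial, 3 glial and 2 erythroid markers, of which *Sox10* and the hemoglobin gene *Hbb-bs* were at 0 in all 6. Of 6 immune markers, *Cd68* alone was tested and was called higher, from 0.973, 1.47 and 0.756 with vehicle to 2.87, 3.85 and 3.88 with hemin. *Cd68* encodes a lysosomal membrane protein, its call was lost on the TPM scale, and *Ptprc*, the pan-leukocyte marker, did not exceed 0.019 in any of the 6.

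Hemin changed a large part of the transcriptome of these colonoids. Calls required an adjusted p below 0.05 together with a log2 fold change beyond 1 in either direction, on the scale of log2(FPKM + 1), which understates the change of genes with low FPKM. Of the 11949 genes 1636 were called (13.7%), 617 higher with hemin (5.16%) and 1019 lower (8.53%). A gene below 1 FPKM in either group passed the filter through the other group alone. The filter thus favours rises of genes low with vehicle and falls of genes low with hemin. Among those below are the rises of *Me1*, *Slc7a11*, *Mt3* and *Ptgs2* and the falls of *Neurog3*, *Smoc2*, *Spdef* and *Pycard*. The counts of their lists include such genes. In 1633 of them the 3 libraries of each group did not overlap, which was also so for 38.7% of all tested genes in the upward and 38% in the downward direction. The balance between rises and falls depended on the scaling. On the deposited scale the median log2 fold change of all tested genes was 0.01, a value near 0 that follows from the scaling between libraries. With FPKM rescaled to TPM it was −0.28, and 306 genes were then called higher and 1791 lower, so that the higher genes made up 14.6% of the calls in place of 37.7%. Leaving *Gm23935* out of the TPM sum, a choice made after seeing the data, gave 382 and 1509 (20.2%). Changes of gene groups are given below beside this median. Their counts of calls on the deposited scale stand against 5.16% higher and 8.53% lower over all tested genes. Those on the TPM scale stand against 306 higher and 1791 lower of the 11949. Counts that passed the adjusted p of limma, without the fold threshold, stand against 3777 upwards and 3770 downwards of the 11949.

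As a share of the summed FPKM of all genes, the genes called higher went from 7.55% with vehicle to 19.3% with hemin, and those called lower from 10.6% to 2.75%, directions that the calls themselves fix. Among the most abundant rises were the ferritin genes *Fth1* and *Ftl1*, the carbonic anhydrase *Car1* (a call lost on the TPM scale), the glutathione transferase *Gstp1* and thioredoxin (*Txn1*). *Ptma*, which encodes prothymosin alpha, the goblet cell genes *Tff3* and *Spink4*, and the ribosomal protein gene *Rpl4* were among the most abundant falls.

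After *Hmox1* the largest rise was that of *Cyp1a1*, a cytochrome P450 and the usual readout of the aryl hydrocarbon receptor. It went from 0.856, 0.685 and 0.362 with vehicle to 198, 215 and 204 with hemin (log2 fold change 6.99, standard error 0.10). Then came the glutathione transferase genes *Gm3776* (5.36) and *Gsta1* (5.04), the metallothionein *Mt3* (4.99), the quinone reductase *Nqo1* (4.71) and *Gclc* (4.61). *Ugdh* (4.37), *Slc7a11* (4.11), *Akr1c19* (4.01), *Aldh1a1* (3.85), *Srxn1* (3.65) and the kinase gene *Sgk1* (3.61) were also among the 15 largest. The deepest falls were in *Cbr2* (−6.42), a carbonyl reductase, and *Creb3l1* (−6.36), which encodes a transcription factor held in the membrane of the endoplasmic reticulum. *Creb3l1* had an FPKM of 175, 190.1 and 182 with vehicle and 1.44, 1.26 and 1.02 with hemin. *Nox1*, the superoxide-generating NADPH oxidase of the colonic epithelium, went from 68.5, 71.5 and 65.9 to 0.252, 0.244 and 0.379 (log2 fold change −5.75, standard error 0.08). *Gsdmc4* (−4.75), *Ccl6* (−4.47), the goblet cell factor *Spdef* (−4.37), *Pla2g2f* (−4.33), *Clca3b* (−4.22), *Tgm3* (−4.13) and the antimicrobial ribonuclease *Ang4* (−4.09) followed. *Ifitm3* was at 22.0, 21.2 and 22.3 with vehicle and at 0 in the 3 hemin libraries. Set against a floor of 3 fragments per library, it was at least 81.5-fold lower.

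**Figure D1:**
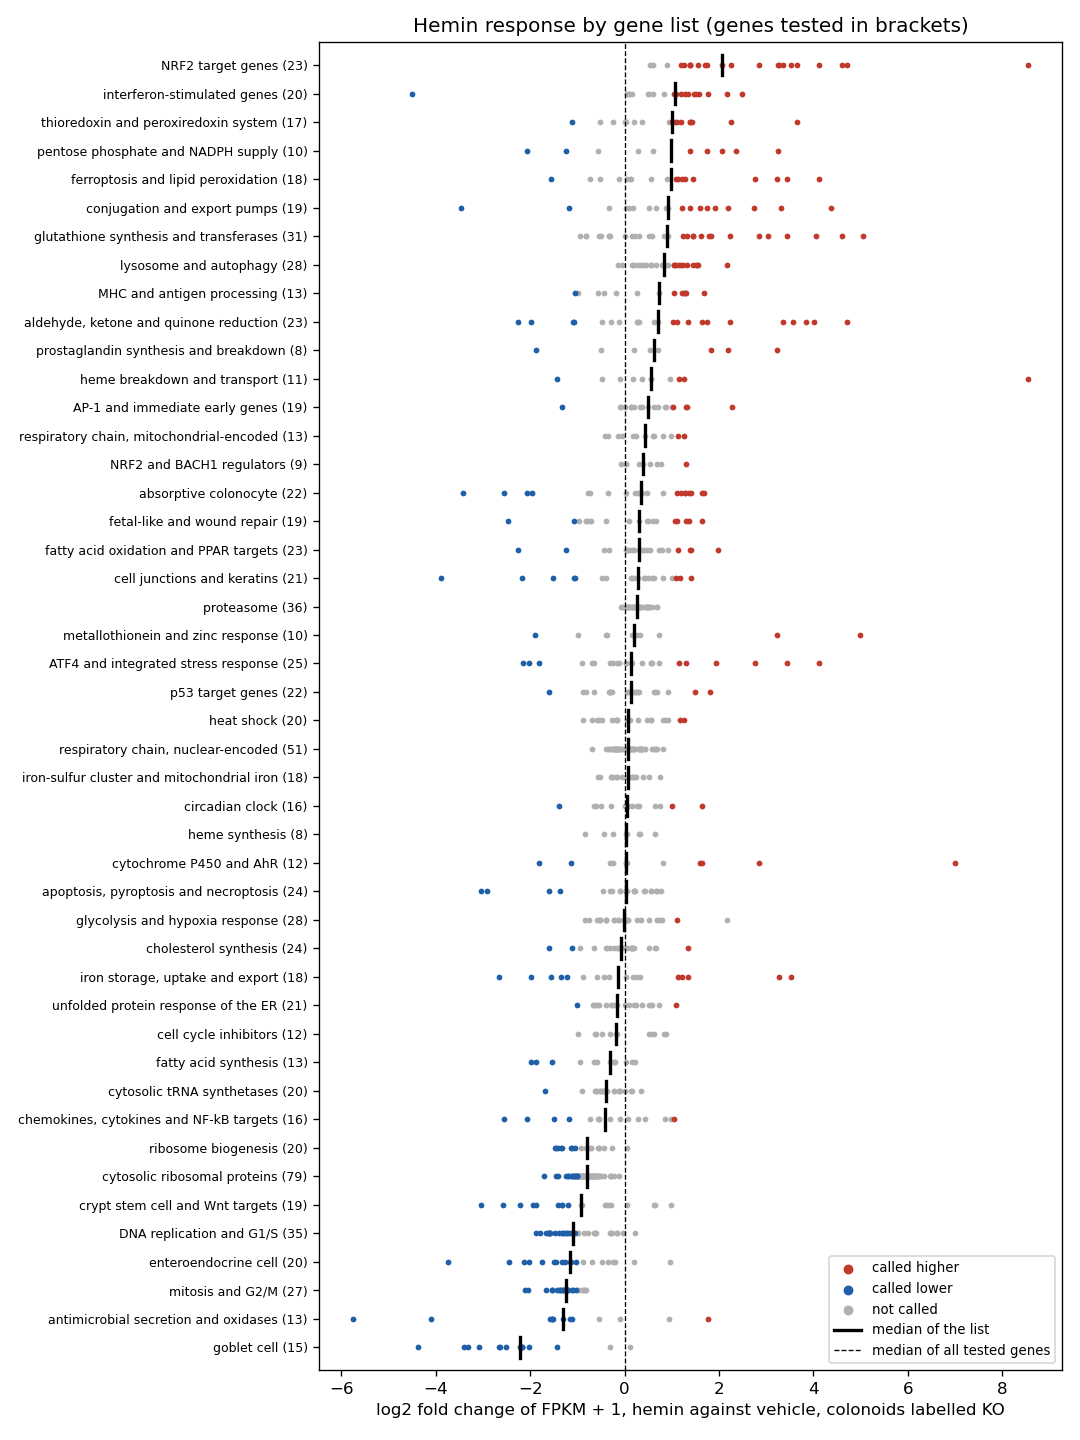
Log2 fold change of FPKM + 1 with hemin in colonoids labelled KO (horizontal axis) for the tested members of 46 gene lists, with the number tested in brackets. Points are genes, red where called higher, blue where called lower and gray otherwise, black bars are list medians and the dashed line is the median of all tested genes, 0.01. NRF2 target genes lie at the top with a median of 2.07 and goblet cell genes at the bottom with −2.22. Medians near 0 change sign on the TPM scale, on which the median of all genes was −0.28.

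Genes of heme breakdown and transport moved unevenly. Of 11 tested members, 3 were called higher and 1 lower, with a median of 0.55. *Blvrb*, which encodes biliverdin reductase B, went from 3.03, 3.72 and 3.52 to 10.3, 8.40 and 10.2 with no overlap of the groups. *Pgrmc1*, a heme-binding membrane protein gene, was at 35.8, 33.2 and 35.8 with vehicle and at 80.7, 79.6 and 76.4 with hemin. Both calls were lost on the TPM scale. *Lrp1*, the receptor that takes up hemopexin-bound heme, fell from 2.21, 2.28 and 2.25 to 0.216, 0.185 and 0.193 (log2 fold change −1.44, limma adjusted p = 4e-07). The pathway that makes heme showed no call among its 8 tested enzymes, whose median of 0.04 became −0.25 on the TPM scale. With limma, 3 of the 8 passed the adjusted p upwards and 2 downwards. *Alad*, the most abundant of them, was at 37.7, 43.2 and 38.6 with vehicle and 41.5, 37.6 and 45.4 with hemin, and these ranges overlapped.

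Iron genes rose and fell. Of 18 tested members of the iron list, 5 were called higher and 5 lower, and the median was −0.14, or 0.27 when only genes averaging 5 FPKM or more were tested. On the TPM scale 3 were called higher and 6 lower. The ferritin genes rose most. *Fth1* went from 539, 552 and 549 to 5352, 5318 and 5284 (log2 fold change 3.28, standard error 0.06) and *Ftl1* from 259, 324 and 290.1 to 3503, 3157 and 3394 (3.53, standard error 0.11). *Ftl1* has near-identical pseudogene copies, among which fragments could have been divided. The other rises, chosen for mention after their values were seen, were the iron exporter *Slc40a1* (1.34), the ferroxidase *Heph* (1.21) and *Ncoa4* (1.14), the receptor that carries ferritin to the lysosome. The deepest fall of the list was that of *Slc11a2*, the divalent metal transporter, which went from 104, 113 and 109 with vehicle to 17.4, 15.9 and 16.1 with hemin (−2.65, standard error 0.06, limma adjusted p = 8.9e-11). *Steap4*, a metalloreductase, fell from 29.5, 31.2 and 28.3 to 8.43, 4.74 and 7.55. Also called lower were the transferrin receptor *Tfrc* (−1.56) and the reductases *Steap1* (−1.22) and *Steap3* (−1.34), which were chosen after their values were seen.

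Of 23 tested NRF2 target genes 20 were called higher and none lower, at a median of 2.07. The remaining 3, *Tkt* (0.60), *Gsr* (0.89) and *Ephx1* (0.53), stayed below the fold change threshold and are named because they were the exceptions. On the TPM scale 18 of the 23 were still called higher, with a median of 1.73. *Nqo1* was at 12.7, 12.4 and 13.8 with vehicle and at 352, 393 and 347 with hemin. *Slc7a11*, the cystine importer, was at 0.624, 0.69 and 0.738 with vehicle and at 28.0, 28.5 and 27.7 with hemin. In both genes the spread within a group was small beside the distance between the groups. Of 9 tested NRF2 and BACH1 regulators of this program, *Mafk* was called higher (1.31) and no gene lower, at a median of 0.40. The call of *Mafk* was lost on the TPM scale. With limma, 6 of the 9 passed the adjusted p upwards and none downwards. The FPKM of *Nfe2l2*, which encodes NRF2, was 52.6, 49.1 and 49.4 with vehicle and 51.8, 54.6 and 48.2 with hemin, and the ranges overlapped (log2 fold change 0.03, limma adjusted p = 0.82).

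Of 31 tested genes of glutathione synthesis and glutathione transfer, 14 were called higher and none lower, with a median of 0.89. Another 7 passed the adjusted p downwards below the fold threshold, and on the TPM scale 12 were called higher and 3 lower. With a pseudocount of 0.1 or limma-voom 2 were called lower. *Gclc*, the catalytic subunit of glutamate-cysteine ligase, which carries out the limiting step of glutathione synthesis, went from 31.9, 30.1 and 30.5 to 769.7, 796 and 772. The ranges of the groups were more than an order of magnitude apart. *Gsta1* was at 12.9, 15.6 and 11.5 with vehicle and at 539.8, 325 and 579 with hemin, with hemin replicate 2 the lowest of the 3. *Gsta2* rose from 0, 0.147 and 0.151 to 18.6, 16.5 and 16.9. *Gsta1*, *Gsta2*, *Gm3776* and *Gm10639* are closely related copies among which fragments may have been split, so their single values are uncertain. *Gstp1*, an abundant transferase of another class, went from 226, 269.9 and 237 to 1959, 2059 and 2028 (3.04, standard error 0.08). *Gpx4*, the peroxidase that reduces lipid hydroperoxides, rose from 83.0, 82.4 and 85.6 to 240.1, 215 and 235 (1.45).

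In the thioredoxin and peroxiredoxin system 9 of 17 tested genes were called higher and 1 lower (median 1.01). *Srxn1*, the sulfiredoxin that restores overoxidised peroxiredoxins, went from 23.3, 22.2 and 21.8 to 318, 264 and 298. *Prdx1* went from 178, 170.3 and 170.3 to 785, 918 and 789 (2.25), and *Txn1* from 756, 769 and 775 to 2128, 1815 and 2096 (1.39). *Sod1*, the cytosolic superoxide dismutase, rose by 1.43 on the log2 scale. The member called lower was *Prdx4* (−1.12), a peroxiredoxin of the endoplasmic reticulum, chosen after its value was seen. On the TPM scale 5 members of this list were called higher.

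Enzymes of the pentose phosphate pathway and NADPH supply went both ways. Of 10 tested genes 5 were called higher and 2 lower, at a median of 0.99. *Me1*, cytosolic malic enzyme, was almost undetected with vehicle, at 0.111, 0.0902 and 0.139, and reached 9.06, 10.4 and 9.35 with hemin (3.25, standard error 0.11). *Pgd* of the pentose phosphate pathway went from 52.4, 55.5 and 54.9 to 237, 219 and 235. The 2 isocitrate dehydrogenases that make NADPH moved in opposite directions. Cytosolic *Idh1* went from 104, 101 and 102 to 519, 566 and 516 (2.37), whereas mitochondrial *Idh2* went from 74.1, 81.5 and 78.3 to 16.8, 18.5 and 18.2 (−2.07).

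Phase I and II enzymes rose and fell. Among enzymes that reduce or oxidise aldehydes, ketones and quinones, 11 of 23 tested genes were called higher and 4 lower (median 0.70). *Akr1b8* went from 38.4, 39.8 and 39.9 to 498, 461 and 476, and *Aldh1a1*, a retinaldehyde dehydrogenase, from 3.05, 3.14 and 2.70 to 57.3, 54.8 and 55.9. Against them *Adh1*, an alcohol dehydrogenase, fell from 482, 522 and 502 to 105, 104 and 102 (−2.26). Of 12 tested genes of the cytochrome P450 and aryl hydrocarbon receptor list, 4 were called higher and 2 lower, and the median of 0.04 became −0.28 on the TPM scale, equal to that of all genes. *Cyp3a13* (2.84) and *Cyp4f14* (1.63) rose and *Cyp2b10* (−1.81) fell, while *Cyp2c55*, the most abundant, was at 176, 184 and 176 with vehicle and 213, 159.6 and 185 with hemin. Among conjugating enzymes and export pumps 9 of 19 tested genes were called higher and 2 lower (median 0.91). With limma-voom this median was 1.52 and 12 were called higher, and a pseudocount of 0.1 moved it almost as far, with 11 called higher. *Ugdh*, which makes the UDP-glucuronic acid used in glucuronidation, went from 11.02, 10.2 and 10.0 to 238, 233 and 234, and *Ugt1a7c* from 15.8, 15.9 and 16.4 to 171, 168 and 169. The pumps *Abcc3* (2.75), *Abcc4* (2.19) and *Abcb1a* (1.92) rose, and the sulfotransferase *Sult1c2* (−3.46) fell.

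Promoter sequence was read for the genes that had a window from 250 bases before to 50 bases after the annotated start. These RefSeq windows were matched by symbol for 174 of the 233 named genes and 8572 of the tested genes. The core of the antioxidant response element, searched as TGACNNNGC on both strands, was in 12.5% of all 27025 windows and in 15% of those of tested genes. It was in 71 of 450 windows of genes called higher (15.8%) and 101 of 710 of genes called lower (14.2%). Of the short lists, it was in 5 of 19 windows of the NRF2 targets (26.3%) and 4 of 9 of the NRF2 and BACH1 regulators (44.4%). In windows of this length the share was thus close to the background for the genes called higher. *Srxn1* and *Me1* are shown as named members of the NRF2 target list that rose and hold the letters, a choice made with the values in view. *Ugdh* and *Akr1c19*, outside that list, rose more and hold them too. Coordinates are of GRCm38.p6, for *Srxn1* chr2:152105274-152105573 on the plus strand and for *Me1* chr9:86695865-86696164 on the minus strand, and capitals mark the match.
Srxn1: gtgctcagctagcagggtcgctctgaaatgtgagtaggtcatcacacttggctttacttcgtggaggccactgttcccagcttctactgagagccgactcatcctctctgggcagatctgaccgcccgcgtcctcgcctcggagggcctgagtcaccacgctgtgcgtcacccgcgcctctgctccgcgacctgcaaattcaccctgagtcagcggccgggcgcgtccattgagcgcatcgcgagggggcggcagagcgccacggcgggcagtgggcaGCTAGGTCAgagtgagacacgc
Me1: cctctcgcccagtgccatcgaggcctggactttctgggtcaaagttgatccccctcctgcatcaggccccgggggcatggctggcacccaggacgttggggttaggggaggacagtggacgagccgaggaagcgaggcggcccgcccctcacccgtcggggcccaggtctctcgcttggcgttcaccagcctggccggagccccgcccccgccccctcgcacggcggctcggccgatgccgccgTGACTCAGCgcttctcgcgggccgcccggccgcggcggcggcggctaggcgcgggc

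The integrated stress response was split. Of 25 tested ATF4 and stress response genes 6 were called higher and 3 lower, and the median of 0.14 became −0.20 on the TPM scale. *Chac1*, which degrades glutathione and is a target of ATF4, rose from 1.61, 1.38 and 1.45 to 33.5, 19.0 and 27.8 (3.45, standard error 0.19). *Slc3a2*, the partner chain of Slc7a11, rose from 24.3, 23.7 and 25.4 to 179, 160.1 and 177, and *Trib3*, a pseudokinase gene, from 0.489, 0.408 and 0.531 to 5.39, 3.56 and 5.25. In each of these 3 genes the groups were apart, and hemin replicate 2 was the lowest of its group. The falls included *Phgdh*, the entry enzyme of serine synthesis, from 41.0, 48.3 and 45.0 to 9.67, 8.68 and 9.64 (−2.15). *Atf4* mRNA itself had a log2 fold change of 0.56 and was not called. None of 20 tested tRNA synthetase genes, which ATF4 can also induce, was called higher. Their median was −0.40 and *Vars* (−1.68) was called lower.

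The composite element to which ATF4 binds with C/EBP proteins, searched as TGATGNAA on both strands, was in 4.06% of all windows and 2.06% of those of tested genes. It was in 6 of 22 windows of the ATF4 list (27.3%), in 4.22% of those of genes called higher and in 1.55% of those of genes called lower. The windows of *Chac1* (chr2:119350992-119351291, plus strand) and *Trib3* (chr2:152344011-152344310, minus strand) are shown as members of the list that rose and hold the element, which is in capitals and reads on the opposite strand in both.
Chac1: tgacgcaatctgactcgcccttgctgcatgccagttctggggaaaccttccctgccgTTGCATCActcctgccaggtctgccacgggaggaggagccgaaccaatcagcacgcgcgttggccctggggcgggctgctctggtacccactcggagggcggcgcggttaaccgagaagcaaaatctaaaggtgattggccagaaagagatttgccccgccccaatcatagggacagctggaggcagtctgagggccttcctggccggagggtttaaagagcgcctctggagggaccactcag
Trib3: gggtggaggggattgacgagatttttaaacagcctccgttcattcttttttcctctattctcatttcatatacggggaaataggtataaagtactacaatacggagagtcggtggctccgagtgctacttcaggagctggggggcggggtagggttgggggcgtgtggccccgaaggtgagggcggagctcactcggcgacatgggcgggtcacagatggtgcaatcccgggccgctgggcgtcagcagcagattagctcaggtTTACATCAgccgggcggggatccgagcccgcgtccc

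Other stress programs moved little as groups. Of 20 tested heat shock genes 2 were called higher, *Hspa1a* (1.25) and *Hspa1b* (1.18), and the median of 0.08 became −0.23 on the TPM scale. These 2 genes are near-identical copies, so their division of fragments is uncertain, and the call of *Hspa1b* was lost on the TPM scale. *Hsp90ab1*, the most abundant chaperone of the list, was at 820.0, 838 and 843 with vehicle and 564, 578 and 566 with hemin, short of the fold threshold (−0.55). In the unfolded protein response 1 of 21 tested genes was called higher, *Dnajb9* (1.09, a call lost on the TPM scale), and 1 lower, *Pdia6* (a call lost without vehicle replicate 2, vehicle replicate 3 or hemin replicate 2), with a median of −0.16. No proteasome gene among 36 tested was called. Their median was 0.26, or −0.07 on the TPM scale. With limma, 23 of the 36 passed the adjusted p upwards below the fold threshold and none downwards.

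Part of the lysosome and autophagy list was called higher. Of 28 tested members 12 were called higher and none lower at a median of 0.84, and on the TPM scale 5 were called higher at a median of 0.52. *Neu1*, lysosomal sialidase, went from 55.9, 60.4 and 55.7 to 275, 231 and 274 (2.16), and the protease gene *Ctsd* from 96.8, 106 and 103 to 301, 294 and 289 (1.53). *Sqstm1*, an autophagy receptor that is also an NRF2 target, went from 57.2, 59.5 and 55.7 to 190.4, 153 and 173. The membrane protein genes *Lamp1* (1.33) and *Lamp2* (1.52) rose as well, *Lamp1* without a call on the TPM scale.

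Metallothioneins diverged by isoform. *Mt3* went from 0.23, 0.163 and 0.501 to 39.2, 41.7 and 38.8, and *Mt4* from 5.07, 5.52 and 4.18 to 62.6, 43.8 and 58.3. These are the isoforms usually described in brain and stratified epithelium. *Mt1*, a general metal-responsive isoform and the most abundant member, was at 208, 198 and 207 with vehicle and 302, 221 and 255 with hemin and was not called (0.33). Of 10 tested genes of the metallothionein and zinc list, *Mt3* and *Mt4* were the 2 called higher and the zinc importer *Slc39a5* (−1.90) the 1 called lower. The list's median of 0.21 became −0.07 on the TPM scale.

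Among 22 tested p53 targets 2 were called higher, *Plk3* (1.80) and *Trp53inp1*, and 1 lower, *Bbc3* (−1.59), with a median of 0.13. On the TPM scale the median was −0.16, with 2 called higher and 3 lower. With a pseudocount of 0.1 or limma-voom 3 were called higher and 2 lower. The cyclin-dependent kinase inhibitor *Cdkn1a* was at 63.0, 60.7 and 61.0 with vehicle and 105, 86.7 and 97.3 with hemin. The groups were apart, but at 0.63 the gene was not called, and none of 12 tested cell cycle inhibitors was. Under TPM, a pseudocount of 0.1 or limma-voom 1 of them was called lower. With limma, 5 of these 12 passed the adjusted p upwards and 5 downwards. Of 19 tested immediate early genes 4 were called higher and 1 lower (median 0.50). Under TPM 2 were called higher at a median of 0.17, and with a pseudocount of 0.1 or limma-voom 6 were. *Egr1* rose from 10.95, 11.1 and 10.3 to 58.6, 51.8 and 57.7 (2.27) and *Atf3* from 5.88, 5.13 and 5.68 to 18.4, 13.3 and 14.3 (1.30), while *Myc* fell from 70.7, 74.5 and 76.8 to 27.9, 29.1 and 29.3 (−1.33).

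Proliferation genes fell together. Of 35 tested genes of DNA replication and the G1/S transition 20 were called lower and none higher, at a median of −1.10, and 32 passed the adjusted p downwards. *Mcm3*, a subunit of the replicative helicase, went from 46.9, 48.1 and 47.4 to 10.8, 12.9 and 12.9 (−1.88), and *Tk1*, thymidine kinase, from 20.7, 23.2 and 23.5 to 5.42, 6.03 and 5.82. *Pcna*, the most abundant of the list, fell short of the call, at 99.3, 101 and 99.3 with vehicle and 80.8, 84.8 and 82.3 with hemin (−0.27). Of 27 tested genes of mitosis 20 were called lower and none higher, at a median of −1.23, and the other 7 also passed the adjusted p downwards. *Ccnb2*, a mitotic cyclin, went from 68.8, 68.4 and 67.7 to 14.0, 15.2 and 16.2 (−2.11) and *Plk1*, a mitotic kinase, from 73.5, 78.7 and 78.8 to 17.5, 18.3 and 17.9 (−2.05). Within each of these 4 called genes the groups did not overlap. In bulk RNA, fewer cells of a kind and less RNA per cell cannot be told apart.

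The cell cycle homology region, searched as TTTGAA on both strands, is the promoter element of late cell cycle genes and was in 18.1% of all windows and 11.9% of those of tested genes. It was in 16 of 22 windows of the mitosis list (72.7%), 4 of 29 of the replication list (13.8%) and 16.3% of those of genes called lower. *Plk1* (chr7:122159185-122159484, plus strand), *Ccnb2* (chr9:70421505-70421804, minus strand) and *Cdc20* (chr4:118437294-118437593, minus strand) are shown as mitotic genes that fell and carry it, in capitals. *Cdc20*, an activator of the anaphase-promoting complex, went from 86.0, 89.9 and 89.3 to 29.3, 29.1 and 30.5. *Ccnb2* holds the 6 letters at 2 places.
Plk1: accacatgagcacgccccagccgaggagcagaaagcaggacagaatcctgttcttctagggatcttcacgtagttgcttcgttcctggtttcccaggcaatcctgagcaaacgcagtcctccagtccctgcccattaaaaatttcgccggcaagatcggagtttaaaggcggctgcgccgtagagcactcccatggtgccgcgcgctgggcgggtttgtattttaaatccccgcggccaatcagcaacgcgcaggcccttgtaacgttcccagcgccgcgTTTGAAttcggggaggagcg
Ccnb2: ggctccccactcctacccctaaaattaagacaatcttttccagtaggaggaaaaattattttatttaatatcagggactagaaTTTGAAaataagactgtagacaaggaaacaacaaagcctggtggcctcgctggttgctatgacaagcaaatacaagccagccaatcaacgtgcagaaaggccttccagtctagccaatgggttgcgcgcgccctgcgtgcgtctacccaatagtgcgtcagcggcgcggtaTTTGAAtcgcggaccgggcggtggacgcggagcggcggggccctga
Cdc20: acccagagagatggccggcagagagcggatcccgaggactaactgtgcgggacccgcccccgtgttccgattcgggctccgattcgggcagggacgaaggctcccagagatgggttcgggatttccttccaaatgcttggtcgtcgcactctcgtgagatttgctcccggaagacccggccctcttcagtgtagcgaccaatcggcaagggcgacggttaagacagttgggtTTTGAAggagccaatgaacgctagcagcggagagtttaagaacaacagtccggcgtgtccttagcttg

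Ribosome genes fell with them. Among 79 tested cytosolic ribosomal protein genes 15 were called lower and none higher, and 71 passed the adjusted p downwards, at a median of −0.80. On the TPM scale 57 were called lower at a median of −1.14, and 45 with *Gm23935* left out of the sum. The summed FPKM of the 79 genes was 28653, 28668 and 29077 with vehicle and 16386, 16689 and 16483 with hemin, so no library of one group reached the other. *Rpl3* went from 376, 391 and 381 to 112, 118 and 118 (−1.71) and *Rpl12* from 217, 226 and 227 to 94.4, 93.4 and 92.6 (−1.25). *Rpl17*, although called lower, varied within groups, at 163, 337 and 377 with vehicle and 72.0, 172 and 80.7 with hemin, and its groups overlapped. Ribosomal protein genes have many pseudogene copies, among which fragments could have been divided. Of 20 tested ribosome biogenesis genes 8 were called lower and none higher (median −0.79), and on the TPM scale 13 were called lower. *Npm1*, nucleophosmin, went from 205, 198 and 190.1 to 73.2, 84.2 and 75.9, and *Fbl*, fibrillarin, from 31.4, 30.8 and 32.6 to 10.1, 11.9 and 12.1.

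Crypt stem cell and Wnt target genes were lower in part. Of 19 tested members 9 were called lower and none higher (median −0.93). *Smoc2*, a marker of crypt base stem cells, went from 8.43, 8.83 and 8.12 to 0.11, 0.141 and 0.201 (−3.04, standard error 0.08). *Cdca7* (−2.58) and *Myb* (−2.21) fell, as did *Slc12a2*, the basolateral sodium-potassium-chloride cotransporter of crypt cells, from 159, 156 and 158 to 38.0, 43.6 and 39.7. The stem cell marker *Lgr5* (−1.40) was also called lower and is named after its value was seen.

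Goblet cell genes showed the deepest fall of any list. Of 15 tested members 13 were called lower and none higher, at a median of −2.22. *Spdef*, a transcription factor of goblet cell maturation, went from 23.3, 23.8 and 24.7 to 0.211, 0.221 and 0.181. *Muc2*, the gel-forming mucin of the colon, went from 72.9, 71.8 and 72.7 to 6.75, 5.54 and 6.92 (−3.32, standard error 0.11, limma adjusted p = 1.5e-09), and *Agr2*, a disulfide isomerase needed to make it, from 449, 424 and 429 to 47.3, 55.6 and 48.5 (−3.08). In each case the hemin libraries were far below the vehicle libraries and close to each other. *Tff3*, the most abundant goblet cell gene, kept a higher level, going from 1068, 1029.9 and 1043 to 247, 196 and 229.6 (−2.22). *Reg4* (−3.41) and *Spink4* (−2.18) also fell. The summed FPKM of the 16 listed genes was 2672, 2552 and 2622 with vehicle and 676, 614 and 629.7 with hemin.

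Enteroendocrine genes fell among lineage regulators and some hormones. Of 20 tested members 12 were called lower and none higher, at a median of −1.15. This median was −1.92 with a pseudocount of 0.1 and −2.08 with limma-voom. *Neurog3*, the factor that commits progenitors to this lineage, went from 20.2, 21.0 and 20.8 to 0.747, 0.381 and 0.791 (−3.73, standard error 0.11). It passed the filter through the vehicle libraries alone, and the filter favours falls among such genes. *Insm1*, a later lineage factor, went from 16.8, 18.3 and 16.5 to 2.22, 2.34 and 2.50 (−2.44). Among hormones the proglucagon gene *Gcg* went from 14.5, 17.6 and 15.1 to 2.42, 2.79 and 3.17 and *Cck* fell by 2.03 on the log2 scale. Peptide YY (*Pyy*), by far the most abundant, was at 396, 417 and 396 with vehicle and 379, 295 and 347 with hemin and was not called. None of 17 tuft cell genes passed the filter, so no direction can be given for tuft cells.

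Absorptive colonocyte genes went both ways. Of 22 tested members 8 were called higher and 4 lower, at a median of 0.34, and on the TPM scale 4 were called higher and 6 lower. *Car1*, the most abundant and without a call on the TPM scale, went from 1343, 1316 and 1282 to 3073, 2671 and 2803, and *Krt20*, a keratin of differentiated surface cells, from 111, 99.1 and 109 to 322, 246 and 289.9. *Car4*, another carbonic anhydrase of surface colonocytes, moved the other way, from 50.7, 64.0 and 59.2 to 5.72, 2.88 and 5.21 (−3.43, standard error 0.19). *Guca2a* and *Guca2b*, which encode guanylin and uroguanylin, fell by 1.95 and by 2.55 on the log2 scale, and the alkaline phosphatase *Alpi* by 2.06. *Aqp8*, a water channel of surface cells, was at 408, 445 and 425 with vehicle and 778, 421 and 642 with hemin, so that hemin replicate 2 lay within the vehicle range.

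**Figure D2:**
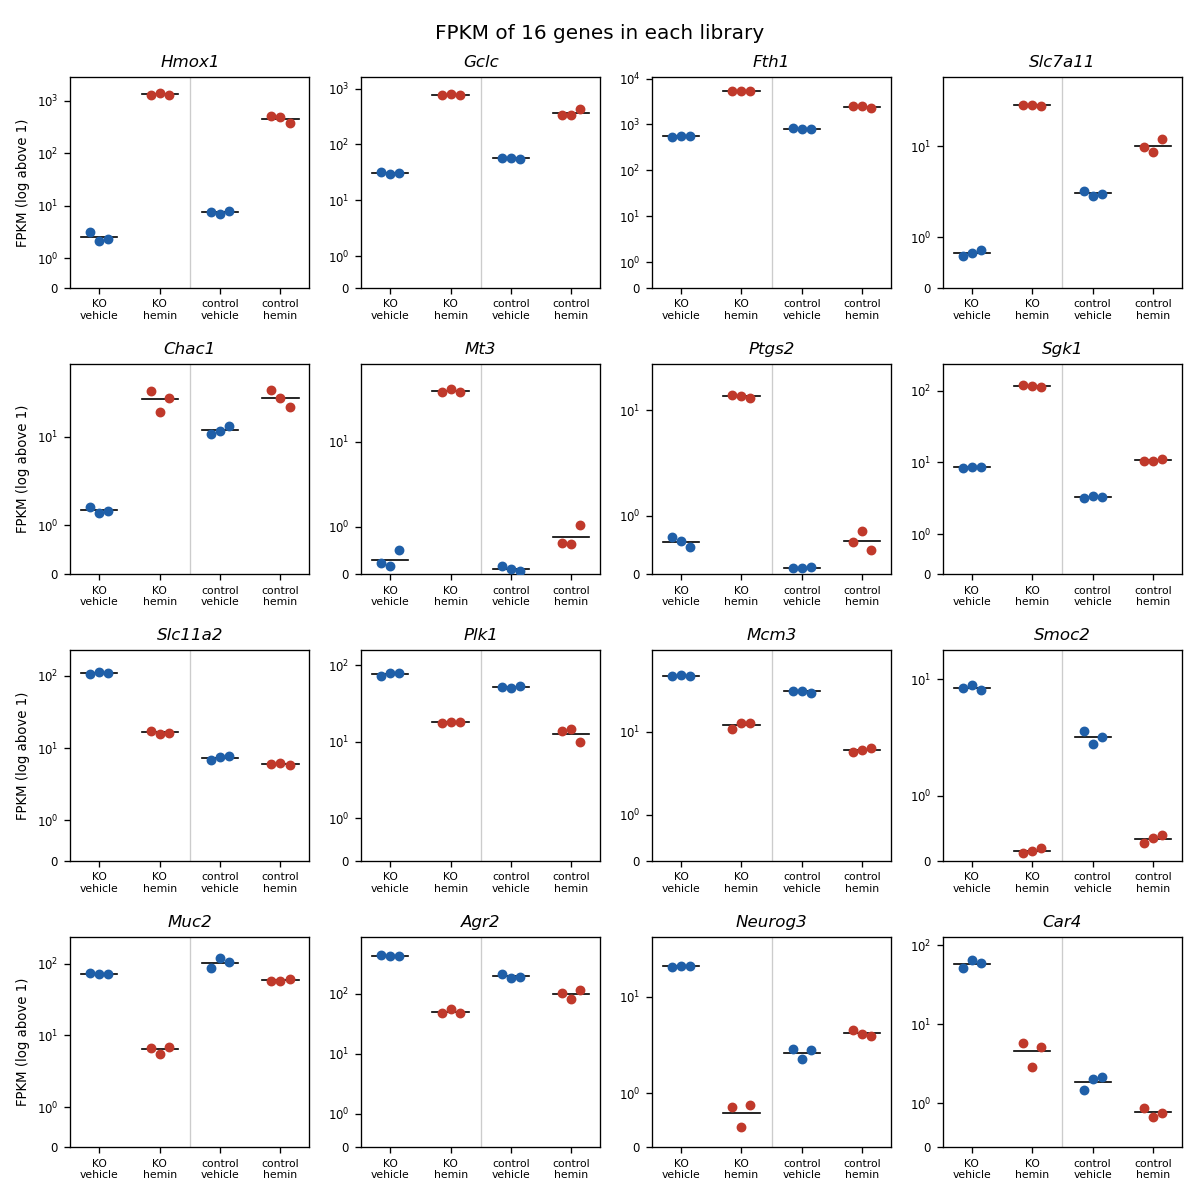
FPKM of 16 genes in each library (vertical axes, linear below 1 and logarithmic above it), blue with vehicle and red with hemin, with a bar at the mean of the 3 libraries. *Hmox1*, *Gclc*, *Fth1*, *Slc7a11*, *Chac1*, *Mt3*, *Ptgs2* and *Sgk1* lie higher with hemin in the colonoids labelled KO, and the other 8 lie lower. The control colonoids on the right of each panel show the same genes.

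Genes linked to fetal-like repair divided. Of 19 tested members 5 were called higher and 2 lower at a median of 0.31. On the TPM scale 2 were called higher and 5 lower at a median of −0.03. Relative to the median of all tested genes, the list lay 0.25 above on the TPM scale and 0.3 above on the deposited scale. *Anxa1*, annexin A1, went from 124, 116 and 119 to 311, 310.4 and 307 (1.37), *Plaur*, the urokinase receptor, from 14.1, 13.7 and 12.7 to 51.5, 37.5 and 46.0 (1.65), and the EGF receptor ligand *Hbegf* from 11.01, 11.4 and 11.5 to 31.7, 28.1 and 28.8 (1.31, a call lost on the TPM scale). *Ly6d* fell by 2.46. Of 21 tested junction and keratin genes 3 were called higher and 5 lower, and the median of 0.28 became −0.05 on the TPM scale, where 1 was called higher. The falls were led by the pore-forming claudins *Cldn15*, from 32.5, 35.8 and 38.1 to 1.47, 1.58 and 1.31 (−3.89), and *Cldn2*, from 22.7, 20.9 and 22.1 to 3.97, 4.03 and 4.30 (−2.17). *Krt8*, the most abundant keratin of the list, was not called (0.43).

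Of 16 tested chemokine, cytokine and NF-kB target genes 1 was called higher and 4 lower, and the median of −0.42 became 0.07 when only genes averaging 5 FPKM or more were tested. *Tnf* went from 7.43, 8.54 and 8.59 to 0.932, 0.441 and 0.34 (−2.56), and *Ccl9* (−2.06), *Ccl20* (−1.49) and *Icam1* (−1.17) fell. *Ccl28*, an epithelial chemokine chosen after its value was seen, was the 1 called higher (1.04), and no member was on the TPM scale. With a pseudocount of 0.1 or limma-voom 3 were called higher. Of 13 tested antimicrobial and oxidase genes 1 was called higher and 9 lower, at a median of −1.30. *Ang4* went from 62.7, 68.4 and 63.9 to 2.55, 2.88 and 3.24, and the dual oxidase *Duox2* fell by 1.58 along with *Nox1*. *Slpi*, a secreted protease inhibitor, was the rise, from 17.7, 19.4 and 20.7 to 72.2, 61.4 and 70.2 (1.76). *Lypd8*, the most abundant of the list and a protein that keeps flagellated bacteria off the epithelium, was at 2226, 2348 and 2256 with vehicle and 4741, 4205 and 4210.2 with hemin, just short of the fold threshold (0.94).

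Of 32 listed interferon-stimulated genes 20 passed the filter. Genes low with vehicle, such as *Rsad2*, passed it through the hemin libraries alone, so the filter favours rises among them. Of 20 tested members 11 were called higher and 1 lower, at a median of 1.06. *Rsad2*, viperin, went from 0.0988, 0.16 and 0.192 to 7.69, 3.73 and 5.39 (2.48), *Isg15*, a ubiquitin-like modifier, from 1.70, 1.38 and 2.20 to 16.6, 6.86 and 12.3 (2.16), and the transcription factor *Irf7* from 5.23, 6.04 and 5.16 to 25.0, 16.4 and 22.0 (1.76). Hemin replicate 2 was the lowest of its group in each, and none of the hemin libraries reached the vehicle range. The member called lower was *Ifitm3*. Of 13 tested genes of antigen processing 6 were called higher and 1 lower (median 0.74), and on the TPM scale 1 was called higher and 2 lower. *Tapbp*, tapasin, went from 26.6, 26.9 and 27.3 to 93.2, 79.9 and 92.3 (1.68). The class I genes *H2-K1* (1.25), *H2-D1* (1.29) and *H2-Q2* (1.31) were called on the deposited scale and not on the TPM scale, and as near-identical copies their single values are uncertain.

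Ferroptosis is an iron-dependent death by lipid peroxidation, and of 18 tested genes of that list 9 were called higher and 1 lower, at a median of 0.99. On the TPM scale 5 were called higher at a median of 0.65. Several are NRF2, ATF4 or iron genes given above. *Ptgs2*, which encodes cyclooxygenase-2 and is used as a marker of this process, went from 0.628, 0.568 and 0.467 to 13.8, 13.8 and 12.9 (3.23, standard error 0.08). Genes that guard against lipid peroxidation (*Gpx4*, *Slc7a11*) and *Chac1* and *Ptgs2* thus rose in the same libraries. Among 24 tested genes of apoptosis, pyroptosis and necroptosis none was called higher and 4 were called lower, and the median of 0.04 became −0.26 on the TPM scale. With limma, 9 of the 24 passed the adjusted p upwards and 6 downwards, beside 3777 and 3770 of all 11949 tested genes. *Pycard*, the inflammasome adaptor, went from 11.2, 12.1 and 11.6 to 0.658, 0.615 and 0.715 (−2.92), and *Gsdmc2*, a gasdermin, from 8.32, 7.37 and 7.11 to 0.06, 0 and 0.0602. *Bcl2*, which restrains apoptosis, and *Bbc3*, which promotes it, both fell (−1.37 and −1.59).

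Lipid genes were read in lists of synthesis and oxidation, beside 5.16% of all tested genes called higher and 8.53% lower. Of 13 tested fatty acid synthesis genes the 3 desaturases *Fads2*, *Fads1* and *Scd1* were called lower (23.1%) and no gene higher (median −0.30). *Fads2* went from 109, 118 and 118 to 24.7, 32.7 and 28.4 (−1.98) and *Scd1* from 22.0, 20.0 and 21.3 to 6.22, 7.12 and 6.72 (−1.53), whereas the isozyme *Scd2* was at 419, 431 and 419.8 with vehicle and 447, 493 and 471 with hemin. Of 24 tested cholesterol synthesis genes 1 was called higher (4.17%), *Tm7sf2* (1.34), and 2 lower (8.33%), *Mvd* (−1.11) among them, around a median of −0.07. These shares were close to those of all genes. Among 23 tested genes of fatty acid oxidation 4 were called higher (17.4%) and 2 lower (8.7%), and the median of 0.31 became −0.01 on the TPM scale, where 3 were called higher. *Cpt1a*, which admits fatty acids to mitochondria, went from 33.1, 33.0 and 33.2 to 88.3, 91.5 and 88.3 (1.41).

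Few genes of energy metabolism were called. Of 28 tested glycolysis and hypoxia genes 1 was called higher, *P4ha1* (1.12, a call lost on the TPM scale), and none lower, with a median of −0.01. The largest log2 fold change of the list, 2.18, belonged to a member that was not called. *Pkm*, the most abundant, was at 444, 467 and 459 with vehicle and 844, 697 and 848 with hemin (0.80). None of 51 tested nuclear genes of the respiratory chain was called, and their median of 0.07 became −0.27 on the TPM scale, close to that of all genes. With limma, 16 passed the adjusted p upwards and 8 downwards, beside 3777 and 3770 of all 11949 tested genes. Of 13 mitochondrial genes, *mt-Nd5* (1.13) and *mt-Nd6* (1.25) were called higher. Both calls were lost on the TPM scale, and that of *mt-Nd5* also without hemin replicate 2. The share of fragments on mitochondrial genes was 2.43%, 2.29% and 2.29% with vehicle and 2.90%, 3.61% and 2.94% with hemin, and its part in these calls was not tested. None of 18 tested iron-sulfur cluster genes was called, with a median of 0.07 that became −0.24 on the TPM scale. With limma, 4 passed the adjusted p upwards and 3 downwards.

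In the clock list 2 of 16 tested genes were called higher (12.5%) and 1 lower (6.25%), beside 5.16% and 8.53% of all tested genes. Counts this small do not set the list apart from all genes. Its median of 0.06 became −0.26 on the TPM scale. *Cry2* went from 3.43, 3.96 and 3.67 to 14.1, 12.6 and 13.8 (1.63), and *Dbp*, an output gene of the clock, from 6.58, 7.07 and 6.91 to 1.88, 1.86 and 2.33 (−1.38). *Nfil3* was called higher at 1.01, a call lost on the TPM scale and at 0.96, 0.97, 0.98 and 0.97 without vehicle replicate 1, vehicle replicate 2, hemin replicate 1 and hemin replicate 2. Of 8 tested prostaglandin genes 3 were called higher and 1 lower (median 0.62). Besides *Ptgs2* and the exporter *Abcc4*, the prostaglandin-degrading enzyme *Hpgd* rose from 23.4, 22.3 and 22.1 to 78.0, 94.2 and 78.4 (1.84), while *Pla2g4a*, the phospholipase that releases arachidonic acid, fell from 15.8, 16.1 and 14.8 to 3.16, 3.86 and 3.53 (−1.88).

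The comparison with control colonoids asked where the response depended on the genotype label. In controls 941 of the same genes were called (7.88%), 253 higher (2.12%) and 688 lower (5.76%). Since the filter used the libraries labelled KO alone, genes expressed only in controls were not counted, and the counts of the 2 responses cannot be compared directly. With the filter over all 12 libraries the difference below was called for 654 genes, 598 of them shared. The difference between the 2 responses was called for 599 genes (5.01%), more positive in the colonoids labelled KO for 291 (2.44%) and more negative for 308 (2.58%). This near balance depended on scaling: on the TPM scale 209 were more positive and 425 more negative, or 225 and 411 when that sum excluded *Gm23935*. Of the 1636 genes called in the colonoids labelled KO, 1213 had no called difference. Control replicates differed among themselves. *Gm23935* took 16.8% of the FPKM sum in control vehicle replicate 1 and 29% in control hemin replicate 1, and the chi-square of the control hemin pairs, divided by its degrees of freedom, ran from 22.8 to 43.1. For control vehicle it was 18.3, 17.4 and 2.56, and for hemin under the KO label 30.6, 28.9 and 3.51. Since *Hoxb13* and *Hoxd13* were at 0 in controls, genotype and the region of colon the cultures came from cannot be told apart here.

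Many NRF2 targets responded more strongly under the KO label. *Hmox1* was among them (difference 2.81, standard error 0.17), although its whole-gene FPKM cannot tell a floxed exon from the others. For 15 of the 23 NRF2 targets the difference was called positive, and for none negative, with control and KO medians of 1.02 and 2.07. It was called positive for 9 of 31 glutathione genes and 7 of 25 ATF4 and stress response genes, with 1 of the latter negative. In the thioredoxin and peroxiredoxin list 2 of 17 genes had a positive called difference and none a negative one, at a median difference of −0.09. *Trib3* was called in opposite directions, being 14.9, 14.7 and 18.2 in control vehicle libraries and 7.10, 5.13 and 5.32 with hemin, against a rise under the KO label (difference 3.25, limma adjusted p = 1.6e-06). With vehicle it was far lower under the KO label than in controls, and with hemin the ranges of the 2 labels overlapped. Its difference therefore depends on the starting level. The 2 other genes called in opposite directions were *Slc10a2*, the bile acid importer (difference 3.03), and *Ccl20* (−2.94). Together these 3 genes were 0.0251% of those tested. *Mt3* stayed at 0.658, 0.635 and 1.04 in hemin-treated controls (difference 4.32). The difference was called positive for 12 of 19 fetal-like genes, whose control median was −0.81, for 8 of 19 immediate early genes, at a median difference of 0.92, and for 7 of 28 glycolysis genes.

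Many goblet cell genes had a more negative response under the KO label. The difference was called negative for 10 of 15 goblet cell genes and positive for 1, *Spink4*, which fell more in controls. *Muc2* was at 85.6, 118.6 and 106.6 with vehicle and 57.3, 57.3 and 60.8 with hemin in controls (difference −2.51, standard error 0.15). For 9 of 20 enteroendocrine genes it was called negative and for none positive. However, these genes passed a filter on the libraries labelled KO alone, and controls started far lower. This count therefore cannot separate a different response from a lower starting level. The summed FPKM of that list was 61.8, 65.5 and 67.9 in control vehicle libraries against 799, 825 and 801 in those labelled KO, and *Pyy*, which was not called, made up much of the latter. *Neurog3* was at 2.90, 2.27 and 2.78 in control vehicle libraries and at 4.56, 4.09 and 3.89 with hemin, a starting level below that of the colonoids labelled KO (difference −4.24). *Slc11a2* stood at 6.90, 7.44 and 7.66 with vehicle and 6.06, 6.22 and 5.82 with hemin in controls, so both its starting level and its response differed (−2.41). For *Ifitm3*, which was at 0.537, 0.173 and 0.107 in control vehicle libraries and at 0 in all 3 with hemin, controls started close to the floor and the fitted difference depends on that starting level. Of 35 replication genes 1 had a called difference and of 27 mitosis genes none did, beside 5.01% of all tested genes. Counts this near that share do not set the 2 lists apart. In controls 24 and 27 of their genes were called lower. Among the 79 ribosomal protein genes no difference was called, with medians of −0.44 in controls and −0.80 under the KO label.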

How the data were processed

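RNA was poly(A)-selected and sequenced from colonoids in 4 groups of 3 libraries. The FPKM per gene were deposited by the authors and made according to the submitters' processing notes with fastp, HISAT2 2.0.5 and featureCounts 1.5.0-p3 on mm10, with no pooling of replicates. The steps and settings of each tool, and whether counting used the strand, are not stated. FPKM times gene length fell on whole multiples of a step in each library (largest relative deviation 3.4e-09), from which fragments were recovered.

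Genes that reached 1 FPKM in 3 or more of the 6 libraries labelled KO were fitted with limma 3.58.1 in R 4.3.3 with the data.table package at version 1.17.8 on log2(FPKM + 1), with 4 group means over all 12 libraries, empirical Bayes moderation with an intensity trend and Benjamini-Hochberg adjustment over the 11949 genes. Contrasts were hemin minus vehicle under the KO label, the same in controls, and their difference. Each was called at an adjusted p below 0.05 and a log2 fold change beyond 1. Standard errors are those of the fit, with 3 libraries per group. Of 100 duplicated symbols, the tested entry or that of higher summed mean FPKM was used. Near-identical gene copies may have had fragments split by counting.

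Members and lists were chosen with earlier results of these data known. Lists are described by counts and medians, and no set test was run. Genes named are *Hmox1*, the 15 largest rises and 15 largest falls among called genes with separated groups and a mean FPKM of 5 or more in the higher one, the 5 most abundant called rises and falls, up to 4 called members of largest change and the most abundant member of each list, the 5 largest and 5 smallest differences among genes called in both contrasts, genes called in opposite directions, and cell type markers. This gave 233 genes, some of which are not reported here, and any other gene is stated to be chosen after its values were seen, except *Gm23935*, which is named for its share of a library.

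Promoter windows and motifs came from RefSeq on GRCm38.p6 and were read with Python 3.11.15, and figures used matplotlib 3.10.9. Alternatives were a pseudocount of 0.1, no filter, a filter over all 12 libraries, a mean FPKM filter of 5, TPM, median-of-ratios scaling (which left every value as it was, since all factors were 1), a replicate block, moderation without a trend, adjusted p alone, limma-voom on recovered fragments, only the 6 libraries labelled KO, and each library left out. TPM without *Gm23935* was added after seeing the data. The fit and its calls were tested on simulated data. Depth was 11648801 to 25101868 fragments, and a gene at 0 was set against a floor of 3 fragments per library, which covers counting error only.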

Additional observations from a re-analysis of the deposited data

Results flagged for a closer look

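The response to hemin differed between the genotype labels for many genes. The test of the difference was called more positive under the KO label for 291 genes and more negative for 308, or for 209 and 425 on the TPM scale, and 3 genes were called in opposite directions, *Trib3*, *Slc10a2* and *Ccl20*. Values in brackets are the log2 response labelled KO minus the log2 response of controls. Genotype and colon region cannot be told apart in them, because *Hoxb13* and *Hoxd13* were at 0 in controls.

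Among the genes written out in the report, which leave out some of the 87 with a called difference, the largest positive differences were those of *Gm3776* (4.78), *Gsta1* (4.37), *Mt3* (4.32), *Gm10639* (3.61), *Gsta2* (3.41), *Trib3* (3.25), *Slc10a2* (3.03), *Gsdmc2* (2.83), *Hmox1* (2.81), *Ptgs2* (2.73), *Slc7a11* (2.65), *Aqp8* (2.48), *Mt4* (2.33), *Chac1* (2.31) and *Slc3a2* (2.28). They were followed by *Sgk1* (2.17), *Me1* (2.14), *Rsad2* (1.99), *Atf3* (1.96), *Gclc* (1.95), *Srxn1* (1.81), *Isg15* (1.77), *Slpi* (1.73), *Akr1b8* (1.67), *Fth1* (1.66), *Nqo1* (1.65), *Nfil3* (1.58), *Plaur* (1.56), *Plk3* (1.55) and *Cyp3a13* (1.46). Smaller ones were those of *Ly6d* (1.39), *Hspa1b* (1.34), *Hbegf* (1.32), *Idh1* (1.32), *Cpt1a* (1.31), *Sqstm1* (1.31), *Spink4* (1.30), *Anxa1* (1.28), *Trp53inp1* (1.23), *Abcc4* (1.20), *Pkm* (1.20), *Hspa1a* (1.18), *Ftl1* (1.11), *Ctsd* (1.07) and *Abcc3* (1.05). Closest to the threshold were *Prdx1* (1.05), *Ugdh* (1.05), *Pgd* (1.04), *Blvrb* (1.02) and *Hpgd* (1.00). *Hmox1* itself was among the positive differences, and its whole-gene FPKM does not show whether the floxed exon was present.

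Within the same limit the most negative differences were those of *Neurog3* (−4.24), *Ifitm3* (−4.18), *Pla2g2f* (−4.12), *Clca3b* (−4.03), *Reg4* (−3.98), *Tgm3* (−3.93), *Ccl20* (−2.94), *Car4* (−2.75), *Nox1* (−2.69), *Muc2* (−2.51), *Slc11a2* (−2.41), *Ang4* (−2.40), *Cldn15* (−2.13), *Agr2* (−2.11) and *Guca2a* (−2.08). Next came *Tff3* (−1.93), *Creb3l1* (−1.91), *Cyp2b10* (−1.83), *Insm1* (−1.79), *Spdef* (−1.70), *Gcg* (−1.66), *Pycard* (−1.48), *Smoc2* (−1.39), *Cyp2c55* (−1.38), *Dbp* (−1.38), *Slc12a2* (−1.37), *Phgdh* (−1.23), *Adh1* (−1.13) and *Cdca7* (−1.12). The weakest negative ones were those of *Ccl6* (−1.09) and *Pla2g4a* (−1.08). *Neurog3*, *Ifitm3*, *Slc11a2* and *Aqp8* started far lower in controls and *Trib3* far higher, so their differences depend on that starting level. Other listed genes may also have started at unlike levels. The difference was not called under at least 1 alternative for *Abcc3*, *Blvrb*, *Creb3l1*, *Ctsd*, *Ftl1*, *Gsdmc2*, *Hpgd* and *Hspa1a*. The same held for *Isg15*, *Ly6d*, *Mt4*, *Pgd*, *Prdx1*, *Rsad2*, *Slpi* and *Ugdh*. With limma-voom it was 0.24 for *Gsdmc2*, 0.82 for *Mt4* and 0.85 for *Slpi*, against 2.01 for *Isg15* and 2.74 for *Rsad2*. With a pseudocount of 0.1 it was 0.94 for *Mt4*, −1.4 for *Creb3l1* and 2.19 for *Ly6d*.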

How the results depend on the processing

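The response labelled KO was called for 1636 genes and its difference from controls for 599, recomputed under 24 alternatives, of which the fit of only the libraries labelled KO gives no difference and median-of-ratios scaling changed no value, so that it tested nothing. Testing only genes with a mean FPKM of 5 or more gave 1076 called, 570 of them lower, and a difference for 348 genes, 135 more negative, since fewer genes were tested. An adjusted p alone, with no threshold on the fold, gave 7547 (3777 higher, 3770 lower) and a difference for 2902 (1617 more positive, 1285 more negative). TPM gave 306 higher and 1791 lower, and 1323 of the 1636 genes stayed called. TPM without *Gm23935*, chosen after seeing the data, gave 382 higher. limma-voom on recovered fragments gave 1542 lower and 479 more negative differences, and a pseudocount of 0.1 gave 480 more negative differences. For these last 4 alternatives the cause was not tested. With the replicate number as a replicate block 1637 genes were called, 1633 of them shared, and the difference was called for 586, 583 of them shared. Deviations of libraries with the same number had a mean correlation of 0.014 over the 3 pairs labelled KO. No shared deviation was thus seen, but 3 pairs cannot show that the libraries were unpaired. Leaving out 1 library at a time gave 1623 to 1669 called, 599 to 638 higher and 1004 to 1043 lower, and for the difference 572 to 638, 264 to 312 more positive and 294 to 359 more negative. Of 167 named genes called in the response, 146 kept the call under every alternative in which they were tested, 21 lost it under at least 1 and 0 reversed. Of 87 with a called difference, 71 kept it, 16 lost it and 0 reversed. The mean FPKM filter left 22 of the 167 and 12 of the 87 untested. Medians of 14 of 46 lists changed sign under TPM, 9 under TPM without *Gm23935* and 3 under the mean FPKM filter.

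These data hold 3 libraries per group, whose independence is not stated, from colonoids whose genotype is taken from their labels, at 1 dose and 1 time. FPKM carry no absolute scale, so a change in total RNA per cell would not be seen. Genes near the floor, such as *Ifitm3* with hemin, are limited by depth, and fold changes of genes below about 1 FPKM are compressed by the pseudocount of 1.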
